A study of Mus musculus with 12 samples.

Results

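RNA captured on streptavidin from oligodendrocyte progenitor cells (OPCs) was compared between a biotin-tagged miR-27a mimic and a biotin-tagged control mimic. A mimic is a short synthetic RNA duplex that stands in for a natural microRNA, and its biotin lets streptavidin pull it down together with attached RNA. The comparison used 6 of the 12 libraries of the series, 3 pulldown libraries for each mimic, chosen by their titles. The other 6 libraries hold whole-cell RNA of cells given the same mimics and served here only to set a change in the pulldown beside the change in the cells. The cells came from brain at postnatal day 6 to 7, and the mouse strain was C57BL/6. For growth the labels give SATO medium with PDGFRA and proliferating cells. All 4 groups therefore share the strain, the age, the medium and transfection with a biotin-tagged mimic, which the control cells received too. The sequence of the control mimic, the arm of miR-27a that the mimic represents, its dose and the time after transfection were not stated in the labels read here. The miR-27a gene itself was not analysed here. Of 20540 genes in the deposited table, 13586 reached 1 CPM in at least 3 of the 6 pulldown libraries and were tested. CPM is a count scaled to the size of its library. That size is the assigned reads multiplied by a normalisation factor, which was 1.02 to 1.05 in the pulldown libraries.

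MicroRNAs guide Argonaute proteins to messenger RNAs, mainly through pairing of the seed, the bases near their 5′ end, with sites in the 3′ untranslated region (3′ UTR), and the targeted messages are translated less and decay faster. Capture of a tagged microRNA is used to collect the messages it is bound to, although RNA can also stay on the beads without being bound to it. OPCs divide in response to platelet-derived growth factor and later leave the cell cycle, switch on myelin genes and become oligodendrocytes. miR-27a has been studied in cell proliferation, lipid metabolism and oligodendrocyte development.

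The seed of miR-27a-3p decides which 3′ UTR letters count as matches below. The mature mouse sequences are shown 5′ to 3′ from RefSeq (GRCm38), with the seed, bases 2 to 8, in capitals. miR-27b-3p, from another locus, has the same seed, and miR-27a-5p, the opposite arm of the miR-27a hairpin, has a different one.
mmu-miR-27a-3p: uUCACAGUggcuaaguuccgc
mmu-miR-27b-3p: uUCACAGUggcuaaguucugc
mmu-miR-27a-5p: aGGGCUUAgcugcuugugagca
The mature miR-27a-3p lies at chr8:84208727-84208747 and miR-27b-3p at chr13:63300760-63300780, both on the plus strand. An 8mer site is ACTGTGAA, the complement of the seed followed by A. The 7mers are ACTGTGA and CTGTGAA, which are contained in the 8mer and were counted only outside it. The windows below are transcript strands of 30 bases around 8mers, in capitals, from GENCODE M21 transcripts (GRCm38). The first 8 belong to genes with a lower level in the miR-27a pulldown, and the last pair, Btg2 and Plk2, to genes that hold the same letters and were not lower.
Adora2b, site 3: tactgtgaaacACTGTGAActcttataatg
Acta2: tctagcacacaACTGTGAAcgttttgtgga
Slc7a11: gggacatctatACTGTGAAagtattttgtt
Plxnd1: cttatgcaccaACTGTGAAtagctgccgct
Nek6: taataggattaACTGTGAAgactaacttat
Abca1: aaaacttactaACTGTGAAtatgagaaaga
Sema7a, site 1: ggaaggcgccgACTGTGAAgctgggccatc
Ccng1: tgtgaaataaaACTGTGAAccttcattcta
Btg2: caaggttagcaACTGTGAAtgagaggggtc
Plk2, 8mer 1: gaagacttggaACTGTGAAtacacttcctg
In GRCm38 the window of Adora2b stands at chr11:62266030-62266059, that of Acta2 at chr19:34241620-34241649, that of Slc7a11 at chr3:50371886-50371915 and that of Plxnd1 at chr6:115955015-115955044. Those of Nek6, Abca1 and Sema7a stand at chr2:38586520-38586549, chr4:53031466-53031495 and chr9:57961811-57961840. Those of Ccng1, Btg2 and Plk2 stand at chr11:40749533-40749562, chr1:134076979-134077008 and chr13:110400551-110400580. The Adora2b window also holds another 8mer of that 3′ UTR, which is seen in lower case near its 5′ end.

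The control pulldown libraries held 16341932 to 24972188 assigned reads and the miR-27a pulldown libraries 19995638 to 21899644. The value that 3 reads would give, an upper limit for a gene with 0 reads that covers counting error only, was 0.116 to 0.180 CPM in these libraries. The first principal component of the 6 libraries held 49.4% of the variance and separated the mimics, and the second, with 22.7%, set miR-27a replicate 2 at one end and miR-27a replicate 1 at the other. OPC markers were present in every pulldown library: Pdgfra, the receptor that defines these cells, at 1357 to 1610.2 CPM, and Olig2, a lineage transcription factor, at 269.8 to 333 CPM. Pulldown and whole-cell libraries differed in sex-linked RNA: Xist stood at 315 to 407 CPM in the 6 pulldown and 95.0 to 119 CPM in the 6 whole-cell libraries, and the Y-linked Ddx3y at 24.7 to 41.6 and 121 to 133 CPM. The part of this in any difference between the fractions given below was not tested. Between the mimics, within the pulldown, neither gene passed the test (adjusted p = 0.911 for Xist and 0.931 for Ddx3y). Mature microRNAs are too short for this library type, so that the mimic itself was not measured. In bulk samples like these, fewer cells of a type and less RNA per cell cannot be told apart. Whether the replicates came from separate cultures is not stated in the labels. The p-values therefore measure only how far these samples spread, which can be technical.

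A gene is said to have risen or fallen where limma gave a Benjamini-Hochberg adjusted p under 0.05 over the 13586 tested genes, and changes are log2 differences of CPM + 1 with their standard error, from 3 against 3 libraries, a scale that understates the change of genes at low CPM. In the miR-27a pulldown 822 genes rose (6.05% of those tested) and 959 fell (7.06%), 1781 in all (13.1%). These shares stand beside every count of a gene list in pulldown RNA given below. With the replicate block, which pairs same-numbered libraries, 1274 rose and 1469 fell, 2743 in all, and all 1781 genes called without the block were among them. Most changes were small: the median absolute change of the called genes was 0.49, against 0.15 over all tested genes and a median standard error of 0.11. 37 rises and 30 falls were at least 2-fold, and each of these kept its call when any 1 of the 6 libraries was left out. On scales that damp genes at low CPM less, these counts were 69 and 64 with a pseudocount of 0.25 CPM, 78 and 81 on the deposited log2 values and 75 and 85 with limma voom on recovered reads. Over all called genes the result leaned more on single libraries. 1002, 1180 and 969 genes were called when control replicate 1, 2 or 3 was left out, and 2085, 2691 and 1029 without miR-27a replicates 1, 2 and 3. 764 genes, 365 higher and 399 lower, were called in each of these 6 fits.

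Among the leading falls were genes of the contractile apparatus of smooth muscle. Myl9, a regulatory light chain of myosin (chr2:156775420-156781658, GRCm38), stood at 90.1, 80.1 and 84.4 CPM in the control libraries and 35.9, 17.1 and 27.6 CPM under miR-27a. The log2 change was -1.68 ± 0.18 (adjusted p = 1.86e-05). Acta2, smooth-muscle actin (chr19:34241090-34255590), whose 3′ UTR holds the 8mer shown above, stood at 28.2, 26.6 and 26.9 CPM in the control libraries and 11, 5.80 and 7.82 CPM under miR-27a, a change of -1.65 ± 0.16 (adjusted p = 9.61e-06). Tagln, the actin-binding protein transgelin (chr9:45929619-45936058), stood at 17.3, 16.3 and 20.2 CPM in the control libraries and 7.50, 5.05 and 8.29 CPM under miR-27a. This gave a log2 change of -1.27 ± 0.15 (adjusted p = 6.27e-05). For all 3 genes the highest miR-27a library lay below the lowest control library, and on the log2 scale the miR-27a libraries differed among themselves more than the control libraries did, with miR-27a replicate 2 lowest. Cnn2, which encodes the actin-binding calponin 2 (chr10:79988584-79996062), fell by 1.25 ± 0.10 on the log2 scale from 47.6 ± 2.38 to 19.4 ± 2.1 CPM (mean and SD, n = 3 each). Of 16 tested contractile genes (22 listed), 7 fell and 0 rose, with a list median of -0.20 beside -0.000933 for all tested genes. Cnn1 at -1.28 ± 0.17, the smooth-muscle calponin, was the fifth large fall of the list, and the remaining pair were small: Srf at -0.40 ± 0.10, the transcription factor that controls contractile genes, and Vcl at -0.27 ± 0.08, the adhesion protein vinculin. The summed level of the list was 982 to 1014 CPM in the control and 800.04 to 898 CPM in the miR-27a libraries. The 12 tested markers of endothelial, mural and fibroblast cells (18 listed) were counted beside it: 2 rose (4 without miR-27a replicate 2, 4 with the replicate block) and 1 fell (0 without control replicate 1, 2 or 3 or miR-27a replicate 2 or 3). The rises were Kdr at 0.63 ± 0.12, a VEGF receptor, and Cspg4 at 0.73 ± 0.12, the proteoglycan NG2, which is also on the list of OPC markers. The fall was Pdgfrb at -0.36 ± 0.11, a receptor of mural cells. The list summed to 391 to 422 CPM in the control and 458 to 486 CPM in the miR-27a libraries, of which Cspg4 held 35.3 to 38.2 and 50.9 to 73.6 CPM, and the part of these markers in the contractile result was not tested. Calls lost on leaving out 1 library were Srf (highest adjusted p = 0.1) without control replicate 1 or 3, and Vcl (highest adjusted p = 0.129) without control replicate 1, 2 or 3 or miR-27a replicate 1 or 3, and Pdgfrb (highest adjusted p = 0.167) without control replicate 1, 2 or 3 or miR-27a replicate 2 or 3.

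The fall of Scg2 was the largest among genes that also differed between RNA fractions. Scg2, secretogranin II, a protein of dense-core vesicles (chr1:79434669-79440120), stood at 129, 137 and 146 CPM in the control libraries and 43.4, 43.0 and 40.4 CPM under miR-27a, a change of -1.67 ± 0.09 (adjusted p = 2.68e-08). Plau, the urokinase plasminogen activator (chr14:20836660-20843385), stood at 16.2, 12.5 and 20.02 CPM in the control libraries and 4.47, 4.62 and 4.79 CPM under miR-27a. The change was -1.59 ± 0.15 (adjusted p = 8.91e-06). Adora2b, an adenosine receptor and a published miR-27 target with 3 8mers (chr11:62248984-62266453), stood at 4.85, 4.63 and 5.53 CPM in the control libraries and 1.01, 1.32 and 0.931 CPM under miR-27a, a change of -1.53 ± 0.16 (adjusted p = 2.25e-05). None of these 3 genes had overlapping groups. Slc7a11, the cystine importer that feeds glutathione synthesis (chr3:49892526-50443614), stood at 153, 165 and 161 CPM in the control libraries and 55.8, 69.9 and 59.2 CPM under miR-27a. Its log2 change came to -1.37 ± 0.09 (adjusted p = 3.47e-07). S1pr3, a receptor for sphingosine 1-phosphate (chr13:51408639-51422797), stood at 240.03, 246 and 258 CPM in the control libraries and 114, 74.8 and 102 CPM under miR-27a, a change of -1.36 ± 0.12 (adjusted p = 3.42e-06). Bmper, a secreted regulator of bone morphogenetic proteins (chr9:23223076-23485200), stood at 72.9, 67.4 and 73.7 CPM in the control libraries and 32.9, 28.5 and 28.8 CPM under miR-27a. The difference of log2 levels was -1.22 ± 0.09 (adjusted p = 1.16e-06). For each of them the miR-27a libraries all lay below the control libraries, and S1pr3 was lowest in miR-27a replicate 2. Rasgrp1, an activator of RAS (chr2:117279993-117343001), changed by -1.31 ± 0.17 (adjusted p = 0.000123) and Tmem51, a membrane protein (chr4:142030992-142084304), by -1.37 ± 0.14 (adjusted p = 1.69e-05), also without overlap.

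**Figure D1:**
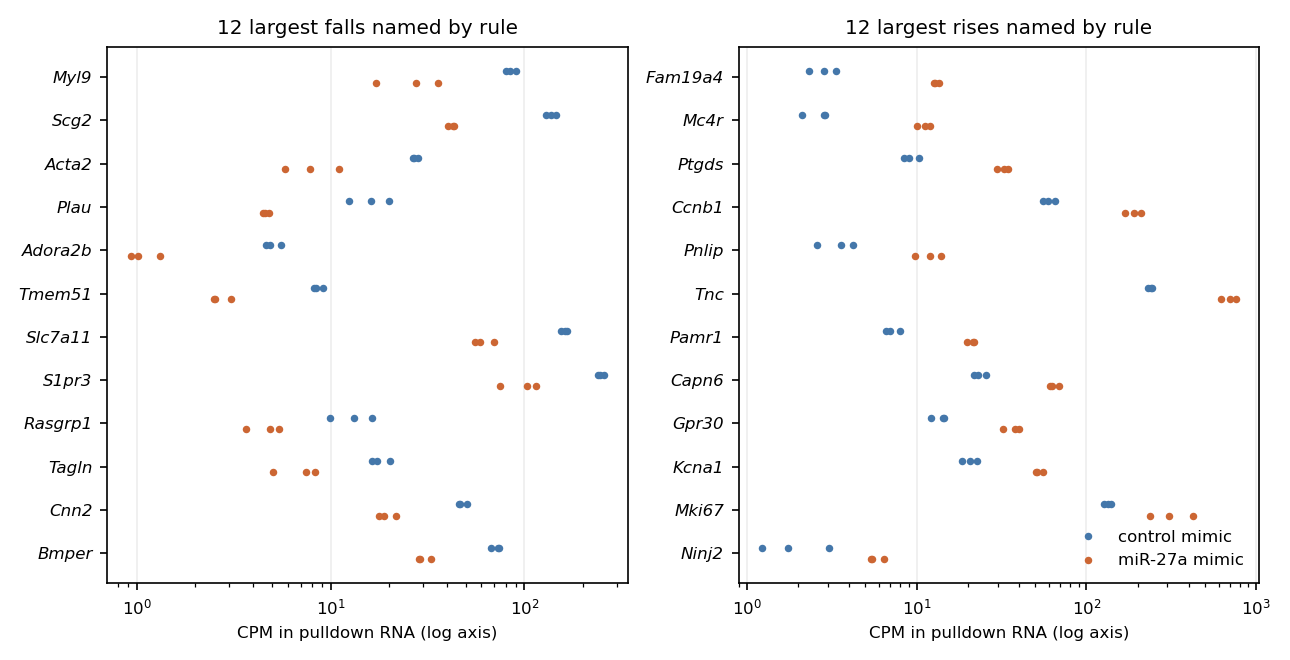
CPM in each of the 6 pulldown libraries (log axis) for the 12 largest falls (left) and the 12 largest rises (right) that passed the test, reached 5 CPM in 1 group and had groups that did not overlap. Each point is 1 library, blue for the control mimic and orange for miR-27a. Ccnb1 rose from 60.3 to 189.5 CPM on average and Myl9 fell from 84.9 to 26.9.

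The rises were led by genes of several kinds. Fam19a4, a secreted chemokine-like protein also called TAFA4 (chr6:96831203-97060413), stood at 2.34, 3.36 and 2.85 CPM in the control libraries and 13.6, 12.7 and 12.8 CPM under miR-27a, a change of 1.88 ± 0.14 (adjusted p = 1.08e-06). Mc4r, the melanocortin 4 receptor (chr18:66857704-66860506), stood at 2.88, 2.12 and 2.85 CPM in the control libraries and 11.9, 10.1 and 11.2 CPM under miR-27a. On the log2 scale this was 1.74 ± 0.15 (adjusted p = 2.49e-06). Ptgds, prostaglandin D synthase (chr2:25466709-25470046), stood at 8.99, 8.45 and 10.3 CPM in the control libraries and 34.4, 29.7 and 32.7 CPM under miR-27a, a change of 1.70 ± 0.11 (adjusted p = 3.47e-07). These 3 genes were low in the control pulldown and the lowest miR-27a library was far above the highest control library in each case. Ccnb1, cyclin B1 of mitotic entry (chr13:100778650-100786570), stood at 55.7, 65.7 and 59.5 CPM in the control libraries and 210.3, 168 and 191 CPM under miR-27a. The fitted log2 change was 1.63 ± 0.10 (adjusted p = 8.66e-08). Tnc, the matrix glycoprotein tenascin C (chr4:63959785-64047015), stood at 241, 232 and 243 CPM in the control libraries and 758, 622 and 704 CPM under miR-27a, a change of 1.53 ± 0.09 (adjusted p = 7.07e-08). Mki67, a proliferation marker (chr7:135689784-135716361), stood at 128, 140.3 and 135 CPM in the control libraries and 238, 426 and 307 CPM under miR-27a. That is a log2 change of 1.22 ± 0.14 (adjusted p = 4.92e-05). No group overlapped for these 3 genes, and Mki67 spread most among the miR-27a libraries, with replicate 2 highest and replicate 1 lowest.

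Capn6, a calpain that lacks protease activity and binds microtubules (chrX:143802231-143827414), stood at 25.5, 21.9 and 23.1 CPM in the control libraries and 60.7, 68.5 and 63.1 CPM under miR-27a, a change of 1.41 ± 0.10 (adjusted p = 3.47e-07). Kcna1, a voltage-gated potassium channel (chr6:126640397-126646384), stood at 18.6, 20.8 and 22.6 CPM in the control libraries and 51.1, 55.3 and 50.4 CPM under miR-27a. As a log2 change this was 1.30 ± 0.10 (adjusted p = 1.19e-06). Gpr30, the G protein-coupled estrogen receptor (chr5:139423151-139427800), stood at 14.6, 12.2 and 14.4 CPM in the control libraries and 40.2, 32.1 and 38.0 CPM under miR-27a, a change of 1.36 ± 0.11 (adjusted p = 2.51e-06). All 3 were higher in every miR-27a library than in any control library. Pnlip, pancreatic lipase (chr19:58652498-58681788), changed by 1.54 ± 0.17 (adjusted p = 2.25e-05), Pamr1, a secreted protein of muscle repair (chr2:102550012-102643041), by 1.43 ± 0.12 (adjusted p = 2.49e-06) and Ninj2, the adhesion protein ninjurin 2 (chr6:120093350-120200339), by 1.21 ± 0.20 (adjusted p = 0.000733). Ninj2 ranged from 1.24 to 3.06 CPM in the control libraries and from 5.41 to 6.40 CPM under miR-27a, and its groups did not overlap although the control libraries differed widely among themselves.

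Of 37 tested genes on the mitosis list 37 rose and 0 fell, with a list median of 0.81. The smallest changes of the list were Foxm1 at 0.50 ± 0.14, a transcription factor of the G2 phase, and Aurka at 0.52 ± 0.12, a spindle pole kinase. Nek6, a mitotic kinase that is not on the list, fell by 1.07 ± 0.09 (adjusted p = 2.51e-06). Beside Ccnb1, Top2a, the topoisomerase that untangles sister chromatids, stood at 196, 229 and 203 CPM in the control libraries and 427, 407 and 403 CPM under miR-27a. Its fitted change was 0.98 ± 0.08 (adjusted p = 2.63e-06). Anln, the cleavage furrow protein anillin, stood at 21.5, 22.0 and 23.1 CPM in the control libraries and 47.1, 50.8 and 49.2 CPM under miR-27a, a change of 1.11 ± 0.09 (adjusted p = 2.49e-06). Hmmr, a spindle-associated hyaluronan receptor, stood at 21.6, 28.5 and 23.2 CPM in the control libraries and 51.8, 60.1 and 53.2 CPM under miR-27a. The log2 change was 1.15 ± 0.11 (adjusted p = 9.04e-06). In each of the 3 genes all miR-27a libraries exceeded all control libraries. Further rises were Kif20a at 0.96 ± 0.09 and Prc1 at 0.91 ± 0.09, both needed for cytokinesis, Cdc20 at 0.97 ± 0.11, the activator of the anaphase-promoting complex, and Tpx2 at 0.83 ± 0.08, a spindle assembly factor. The summed level of the list was 1393 to 1575 CPM in the control and 2749 to 2962 CPM in the miR-27a libraries, and 33 of the 37 rises were called in each fit that left out 1 library. The published-target list and this one share no member, and 1 mitosis gene, Cdc25b, holds an 8mer and rose by 0.62 ± 0.16. Without single libraries the following calls were lost: Foxm1 (highest adjusted p = 0.127) without control replicate 1, 2 or 3 or miR-27a replicate 1, and Cdc25b (highest adjusted p = 0.103) without control replicate 1 or 2 or miR-27a replicate 3.

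Of 41 genes of S-phase entry and DNA replication, 20 rose and 0 fell, with a median of 0.39. Ccne2, a cyclin of S-phase entry, stood at 15.2, 15.1 and 13.0 CPM in the control libraries and 31.5, 39.4 and 30.3 CPM under miR-27a, a change of 1.16 ± 0.12 (adjusted p = 1.47e-05). Tk1, the thymidine kinase of the salvage pathway, stood at 6.95, 8.22 and 7.99 CPM in the control libraries and 22.0, 14.2 and 17.7 CPM under miR-27a. This gave a log2 change of 1.10 ± 0.15 (adjusted p = 0.000136). Uhrf1 at 0.89 ± 0.13, a reader of newly replicated DNA, Pola1 at 0.67 ± 0.10, the catalytic subunit of DNA polymerase alpha, Ccnd1 at 0.58 ± 0.09, the D cyclin of G1, and Rrm2 at 0.66 ± 0.12, of ribonucleotide reductase, followed, and these 6 were called whichever library was left out. Cdk4, the partner of D cyclins, stood at 0.05 ± 0.10 (adjusted p = 0.79) and the maintenance methyltransferase Dnmt1 at 0.09 ± 0.09 (adjusted p = 0.539). The number of rises was 10, 12 or 9 when control replicate 1, 2 or 3 was left out and 11, 25 or 10 when miR-27a replicate 1, 2 or 3 was. Of 64 tested replication-dependent histone genes (69 listed), 36 rose and 0 fell, with a median of 0.47, and the number of rises was 19, 20 or 21 when control replicate 1, 2 or 3 was left out and 33, 55 or 10 when miR-27a replicate 1, 2 or 3 was. Hist1h2bn at 0.83 ± 0.13 and Hist1h1b at 0.83 ± 0.15 were among those called in all 6 of these fits. Histone genes are near copies of each other, so that reads may be split among them and single members are uncertain. Their summed level was 1926 to 2033 CPM in the control and 2144 to 3154 CPM in the miR-27a libraries, with miR-27a replicate 2 lowest and replicate 1 highest. Of 23 CDK inhibitors and p53 targets 3 rose (5 with the replicate block) and 3 fell. Cdkn1c, the inhibitor p57, rose by 0.69 ± 0.08 (adjusted p = 5.29e-05), whereas Gadd45b, a stress-response gene, fell by 0.76 ± 0.14 and Ccng1, cyclin G1, by 0.50 ± 0.10 on the log2 scale.

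**Figure D2:**
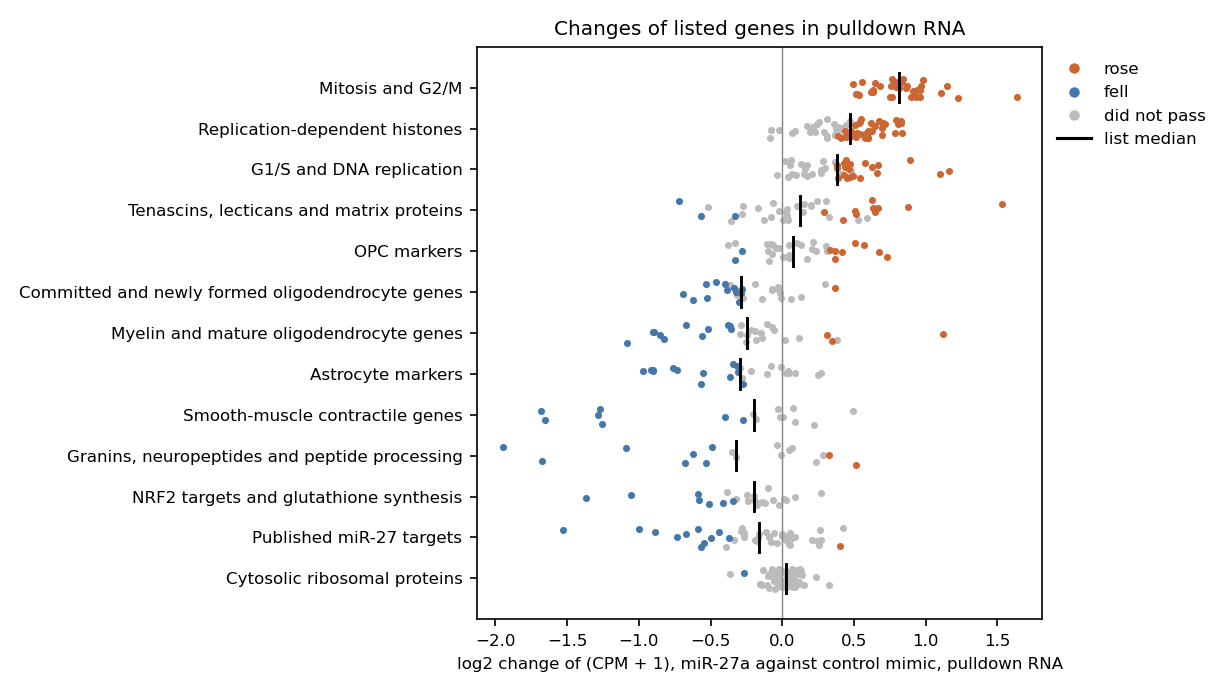
log2 change of CPM + 1 between miR-27a and control pulldown for each tested gene of 13 lists, 1 point per gene, orange where it rose, blue where it fell and grey where it did not pass the test, with the list median as a black bar. All 37 mitosis genes lie to the right of 0, and the medians of the committed oligodendrocyte, myelin and astrocyte lists lie at -0.28, -0.25 and -0.29.

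The seed was searched in 1 annotated 3′ UTR per gene, the longest, which 17033 of the 20540 genes had. An 8mer occurred in 1042 of these (6.12%) and a 7mer alone in 3667. Among 857 tested genes with an 8mer, 152 fell (17.7%) and 33 rose (3.85%), with a median change of -0.11. Among 8765 tested genes with a 3′ UTR and no match, 5.75% fell and 6.49% rose, with a median of 0.01. Genes with a 7mer alone lay between them, with 8.78% lower, 6.26% higher and a median of -0.02. Of 51 tested genes with at least 2 8mers, 13 fell and 2 rose. 8mer genes were thus lower in the miR-27a pulldown more often than higher, and their median in whole-cell RNA was -0.10, close to that in the pulldown. The median difference between the 2 fractions was -0.01 for 8mer genes and -0.01 for all tested genes.

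3′ UTRs with an 8mer were longer, with a median of 2619 bases against 924 without a match. When genes were divided into 3 equal groups by 3′ UTR length, the share of 8mer genes that fell was 23.4%, 17.6% and 17% in the short, middle and long group, and that of genes without a match 5.36%, 6.27% and 5.69%. The 8mer of the opposite arm, miR-27a-5p, occurred in 293 tested genes, of which 26 fell and 24 rose, with a median of -0.01. 6 genes with a miR-27a-3p 8mer fell at least 2-fold and 0 rose as much. Beside Adora2b, Acta2 and Slc7a11 these were Plxnd1 at -1.20 ± 0.13, a semaphorin receptor, Nek6 at -1.07 ± 0.09, a mitotic kinase, and the unnamed gene 0610007P14Rik at -1.04 ± 0.09. No test was made of the site classes, which differ in 3′ UTR length, and their base composition was not compared.

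**Figure D3:**
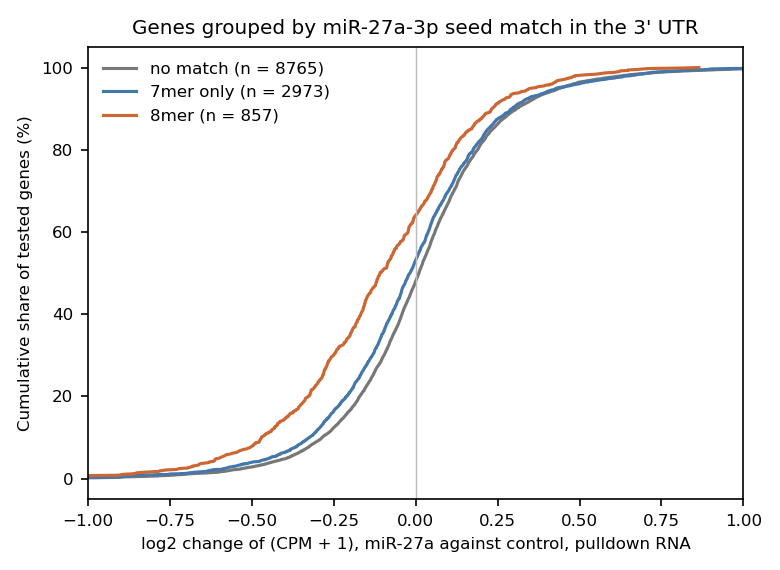
Cumulative share of tested genes (%) by log2 change of CPM + 1 in the pulldown, for genes with a miR-27a-3p 8mer in the 3′ UTR (orange), a 7mer alone (blue) or neither (grey), drawn between -1 and 1. The 8mer curve lies to the left, with a median of -0.11 against 0.01 for genes with no match.

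Published targets of miR-27 in other cells, collected from general knowledge, had 45 tested members of 50. 11 fell and 1 rose (2 without miR-27a replicate 1 or 2, 4 with the replicate block), with a median of -0.16. Abca1, the cholesterol exporter, stood at 421, 451 and 441 CPM in the control libraries and 269.7, 252 and 268 CPM under miR-27a, a change of -0.73 ± 0.08 (adjusted p = 2.25e-05). Cyp1b1, a cytochrome of steroid and lipid oxidation, stood at 72.8, 85.3 and 75.8 CPM in the control libraries and 42.4, 40 and 42.5 CPM under miR-27a. The change was -0.89 ± 0.09 (adjusted p = 1.47e-05). Nfe2l2, the antioxidant regulator NRF2, stood at 48.6, 52.4 and 50.6 CPM in the control libraries and 33.6, 33.6 and 32.6 CPM under miR-27a, a change of -0.59 ± 0.09 (adjusted p = 0.000381). The miR-27a libraries lay below the control libraries for all 3. Further falls were Met at -1.0 ± 0.18, the hepatocyte growth factor receptor, Sema6a at -0.57 ± 0.09, a semaphorin, Gpam at -0.54 ± 0.08, the first enzyme of glycerolipid synthesis, and Ccng1. Tgfbr1 at 0.40 ± 0.08, a receptor of transforming growth factor beta, was the rise. The targets without a call included Apc, the scaffold of beta-catenin destruction, at 0.21 ± 0.11 (adjusted p = 0.231, but 0.0137 without miR-27a replicate 1), Gsk3b, its kinase, at 0.07 ± 0.09 (adjusted p = 0.693) and Runx1, a transcription factor, which held only 0.719 to 1.83 CPM. Plk2, a stress-responsive kinase with 2 8mers, stood at 86.0, 92.3 and 87.2 CPM in the control libraries and 87.8, 92.3 and 92.2 CPM under miR-27a. Its log2 change came to 0.04 ± 0.08 (adjusted p = 0.827), and its groups overlapped. In whole-cell RNA Plk2 changed by -0.40 ± 0.05, and the difference between fractions of 0.43 ± 0.08 passed the test (adjusted p = 0.0134). That call was lost without pulldown control replicate 3, whole-cell control replicate 3 or whole-cell miR-27a replicates 1 or 3 (highest adjusted p = 0.0639).

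Genes that mark the progenitor stage and those that mark later stages of the lineage differed in how many rose and fell. Of 32 OPC markers 8 rose (13 without miR-27a replicate 2, 13 with the replicate block) and 2 fell (0 without control replicate 1, 2 or 3 or miR-27a replicate 3). Their median was 0.08 in pulldown RNA and 0.03 in whole-cell RNA, where 11 rose and 5 fell. Cspg4, the NG2 proteoglycan, stood at 38.2, 35.8 and 35.3 CPM in the control libraries and 73.6, 50.9 and 60.8 CPM under miR-27a, a change of 0.73 ± 0.12 (adjusted p = 0.000548). Neu4, a sialidase, stood at 114, 117 and 120.2 CPM in the control libraries and 178, 191 and 193 CPM under miR-27a. The difference of log2 levels was 0.67 ± 0.08 (adjusted p = 4.45e-05). Pcdh15 at 0.57 ± 0.10, a protocadherin, Vcan at 0.51 ± 0.10, the proteoglycan versican, and Tmem100 at 0.42 ± 0.08, a membrane protein, also rose. Pdgfra stood at 1395, 1368 and 1357 CPM in the control libraries and 1610.2, 1506 and 1538 CPM under miR-27a, a change of 0.18 ± 0.09 (adjusted p = 0.208), and its groups did not overlap. In whole-cell RNA Pdgfra fell, at -0.14 ± 0.03 (limma, adjusted p = 0.00186), as did Pcdh15, at -0.15 ± 0.05 (adjusted p = 0.0288). In the pulldown Olig2 stood at 277, 289.6 and 269.8 CPM in the control libraries and 333, 303 and 329 CPM under miR-27a. On the log2 scale this was 0.20 ± 0.08 (adjusted p = 0.108, but 0.0358 with the replicate block and 0.00875 without miR-27a replicate 2). Of 29 tested genes of committed and newly formed oligodendrocytes (34 listed), 12 fell (5 without control replicate 3) and 1 rose (0 without control replicate 2 or miR-27a replicate 3, 2 without miR-27a replicate 1, 2 with the replicate block), with a median of -0.28 in pulldown RNA and -0.04 in whole-cell RNA. Zfp365 at -0.70 ± 0.09, Cnksr3 at -0.62 ± 0.10, a scaffold of kinase signalling, Mpzl1 at -0.53 ± 0.09, a cell surface glycoprotein, Sirt2 at -0.46 ± 0.08, a tubulin deacetylase, and Nkx6-2 at -0.53 ± 0.11, a transcription factor of the lineage, kept their calls in each fit that left out 1 library, and Gpr17 at 0.37 ± 0.09, the receptor of premyelinating cells that stands on both lists, was the rise. Some of these calls rested on single libraries: Gpr17 (highest adjusted p = 0.0612) without control replicate 2 or miR-27a replicate 3.

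Myelin genes had 29 tested members of 37, of which 11 fell (6 without control replicate 1, 7 without control replicate 3) and 3 rose (1 without control replicate 1, 2 or 3 or miR-27a replicate 3), with a median of -0.25 in pulldown RNA and -0.10 in whole-cell RNA. Mbp, myelin basic protein, stood at 848, 725 and 815 CPM in the control libraries and 434, 450.2 and 436 CPM under miR-27a, a change of -0.85 ± 0.08 (adjusted p = 1.24e-05). Mag, the myelin-associated glycoprotein, stood at 459, 346 and 436 CPM in the control libraries and 214, 218 and 229 CPM under miR-27a. The fitted log2 change was -0.89 ± 0.10 (adjusted p = 2.95e-05). Trf, transferrin, stood at 241, 199.8 and 229.9 CPM in the control libraries and 133, 116 and 128 CPM under miR-27a, a change of -0.83 ± 0.09 (adjusted p = 2.82e-05). Every miR-27a library lay below every control library in these 3 genes, and miR-27a replicate 3 was the highest of its group for Mag. Lpar1, a lysophosphatidic acid receptor, changed by -1.08 ± 0.11 (adjusted p = 1.26e-05) and Gal3st1, the last enzyme of sulfatide synthesis, by -0.52 ± 0.09 (adjusted p = 0.000948). In the opposite direction Gjc3, a glial connexin, stood at 48.6, 40.8 and 38.0 CPM in the control libraries and 78.4, 111 and 92.2 CPM under miR-27a. That is a log2 change of 1.12 ± 0.12 (adjusted p = 2.25e-05). The difference of the change between fractions was called for 7 of the 29, 6 lower and 1 higher in the pulldown, where 1.07% of all genes tested for that difference were called. It was -0.68 ± 0.10 for Mbp (adjusted p = 0.00249), -0.78 ± 0.11 for Mag (adjusted p = 0.00249) and -0.64 ± 0.10 for Gal3st1 (adjusted p = 0.00249), whose changes in whole-cell RNA were -0.17 ± 0.04, -0.11 ± 0.04 and 0.12 ± 0.04. These 3 calls held without any 1 of the 12 libraries, whereas that of Gjc3 was lost without pulldown control replicate 3 and that of Lpar1 without whole-cell control replicate 3 or whole-cell miR-27a replicates 1 or 3. The summed level of the list was 9197 to 10345 CPM in the control and 7430.01 to 8755 CPM in the miR-27a libraries.

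Of 25 astrocyte markers 13 fell (8 without control replicate 1 or 3) and 0 rose (1 without miR-27a replicate 2, 1 with the replicate block), with a median of -0.29. Gfap, the intermediate filament of astrocytes, stood at 832, 886 and 913 CPM in the control libraries and 595, 449 and 550.2 CPM under miR-27a, a change of -0.73 ± 0.10 (adjusted p = 0.000195). Aldh1l1, a folate enzyme, stood at 440.2, 448 and 479 CPM in the control libraries and 280.2, 191 and 269.8 CPM under miR-27a. As a log2 change this was -0.90 ± 0.12 (adjusted p = 0.000124). Slc1a2, the glutamate transporter GLT-1, which holds 2 8mers, stood at 354, 372 and 348 CPM in the control libraries and 233, 199 and 202 CPM under miR-27a, a change of -0.76 ± 0.08 (adjusted p = 2.95e-05). No group overlapped for these genes. Ndrg2 at -0.92 ± 0.10, Cbs at -0.90 ± 0.14, an enzyme of transsulfuration, and Hes5 at -0.56 ± 0.11, a Notch effector, also fell. Fabp7 and Sox9, which OPCs express too, stood at 0.09 ± 0.09 and 0.05 ± 0.12 (adjusted p = 0.583 and 0.853). The list summed to 10665 to 10809 CPM in the control and 8450.2 to 9774 CPM in the miR-27a libraries, which do not overlap. Microglial markers summed to 132 to 149 CPM in the control and 132 to 149 CPM in the miR-27a libraries and neuron markers to 482 to 492 CPM in the control and 451 to 461 CPM in the miR-27a libraries. The list medians were -0.24 for microglial and -0.14 for neuron markers, and 12 of 14 and 13 of 18 tested members had a negative change. Of 14 tested microglial markers 1 fell (2 without miR-27a replicate 3, 3 without miR-27a replicate 2, 2 with the replicate block), and 1 rose (0 without control replicate 2 or 3 or miR-27a replicate 3). The fall was C1qa at -0.74 ± 0.16, a complement subunit. Of 18 tested neuron markers 4 fell (2 without control replicate 1 or 3 or miR-27a replicate 3), among them Snap25 at -0.87 ± 0.13, a synaptic fusion protein, and Gap43 at -0.42 ± 0.08, a growth cone protein, and 1 rose, Tubb3 at 0.47 ± 0.09, a tubulin. The 6 tested markers of ependyma and choroid plexus held no call in pulldown RNA by limma, and Ttr, transthyretin, stood at 0.11 ± 0.08 (adjusted p = 0.465). What share of the changes in lineage genes comes from other cells in the cultures was not tested.

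Of 38 tested matrix proteins 10 rose (17 without miR-27a replicate 2) and 3 fell, with a median of 0.13. Col11a1, a fibrillar collagen chain, stood at 1345, 1349 and 1387 CPM in the control libraries and 2057, 2336 and 2111 CPM under miR-27a. Its fitted change was 0.67 ± 0.09 (adjusted p = 0.00016). Spp1, osteopontin, stood at 75.9, 74.7 and 72.4 CPM in the control libraries and 116, 127 and 108 CPM under miR-27a, a change of 0.64 ± 0.09 (adjusted p = 0.000142). Thsd4 at 0.88 ± 0.14, a protein of fibrillin fibres, Lama4 at 0.62 ± 0.09, a laminin chain, and Fbln2 at 0.63 ± 0.11, fibulin 2, rose with them, and Thbs2 at -0.72 ± 0.14, thrombospondin 2, and Hapln4 at -0.57 ± 0.12, a hyaluronan link protein, fell. Of 29 genes of the plasminogen system and the metalloproteinases 6 rose (1 without miR-27a replicate 3, 2 without control replicate 3, 3 without control replicate 1 or 2) and 5 fell (3 without control replicate 1 or 3 or miR-27a replicate 3). Mmp2, a gelatinase, stood at 24.8, 21.5 and 23.0 CPM in the control libraries and 52.2, 39.8 and 46.9 CPM under miR-27a. The log2 change was 0.97 ± 0.11 (adjusted p = 3.64e-05). Timp1, an inhibitor of such enzymes, stood at 34.0, 33.4 and 38.8 CPM in the control libraries and 23.2, 16.2 and 17.2 CPM under miR-27a, a change of -0.89 ± 0.13 (adjusted p = 0.000253). Mmp2 and Timp1 thus moved in opposite directions, each with groups that did not overlap, and Plau and Adamts4 at -0.56 ± 0.11, an aggrecan-cleaving protease, were the other falls called in each fit that left out 1 library.

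Of 17 tested granin and neuropeptide genes (24 listed) 7 fell and 2 rose (0 without control replicate 1 or 2 or miR-27a replicate 1 or 3, 1 without control replicate 3), with a median of -0.32. Vip, a neuropeptide, was at 3.74 to 5.03 CPM in the control libraries and 0.308 to 0.372 CPM under miR-27a. This gave a log2 change of -1.95 ± 0.18 (adjusted p = 5.84e-06), and its miR-27a levels rest on few reads. They lay above the value that 3 reads would give in the miR-27a libraries, 0.132 to 0.144 CPM. Vgf at -1.09 ± 0.16, a granin-like precursor, Chgb at -0.68 ± 0.11, chromogranin B, and Scg3 at -0.49 ± 0.10, secretogranin III, fell beside Scg2 and Vip, and these 5 kept their calls without any 1 library. The rises, Pam at 0.33 ± 0.09, an amidating enzyme, and Npy at 0.52 ± 0.15, neuropeptide Y, did not. Among 35 G protein-coupled receptors (50 listed), 7 rose (4 without control replicate 2) and 8 fell, with a median of 0.03. S1pr1, another sphingosine 1-phosphate receptor, rose by 0.59 ± 0.09 (adjusted p = 0.000641) where S1pr3 fell, and F2r at 0.50 ± 0.08, the thrombin receptor, also rose. Grm5, a metabotropic glutamate receptor with an 8mer, stood at 271, 301 and 282 CPM in the control libraries and 172, 214 and 173 CPM under miR-27a, a change of -0.61 ± 0.09 (adjusted p = 0.00046). Lipid mediator enzymes had 3 rises and 2 falls of 21: Ptgds, Pnlip and Lipa at 0.64 ± 0.11, the lysosomal acid lipase, rose, and Ptges at -0.65 ± 0.11, prostaglandin E synthase, and Ephx2 at -0.60 ± 0.14, an epoxide hydrolase, fell. Not all of these calls held without 1 library: Pam (highest adjusted p = 0.0895) without control replicate 1, 2 or 3 or miR-27a replicate 1 or 3, and Npy (highest adjusted p = 0.128) without control replicate 1 or 2 or miR-27a replicate 1 or 3.

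Of 24 tested NRF2 target and glutathione genes 7 fell (4 without control replicate 1 or 2 or miR-27a replicate 3, 11 with the replicate block) and 0 rose (1 without miR-27a replicate 2, 1 with the replicate block), with a median of -0.20. Beside Slc7a11 and Nfe2l2 itself, Srxn1, sulfiredoxin, stood at 49.98, 47.0 and 44.9 CPM in the control libraries and 23.9, 19.96 and 23.2 CPM under miR-27a. The change was -1.05 ± 0.10 (adjusted p = 8.84e-06), without overlap. Hmox1 at -0.58 ± 0.13, heme oxygenase 1, was the last of the falls that held without any 1 library, and Nqo1 at -0.41 ± 0.11, a quinone reductase, Gsta4 at -0.51 ± 0.13, a glutathione transferase, and Me1 at -0.35 ± 0.10, malic enzyme, did not hold. Over all tested genes 6.05% rose and 7.06% fell, 13.1% in all. The cholesterol and integrated stress response lists held calls at about that share. Of 29 cholesterol genes 1 rose (0 without control replicate 3, 3 without miR-27a replicate 2), Insig1 at 0.38 ± 0.08, which retains the SREBP regulator, and 3 fell (1 without control replicate 1, 2 or 3 or miR-27a replicate 3, 6 without miR-27a replicate 2, 5 with the replicate block), led by Abca1. Of 20 immediate early genes 2 rose (1 without control replicate 1 or 3 or miR-27a replicate 3) and 3 fell (5 without miR-27a replicate 2, 6 with the replicate block). Junb at -0.75 ± 0.10 and Fos at -0.48 ± 0.10, both subunits of AP-1, fell, and Btg2, an antiproliferative gene whose 8mer is shown above, stood at 52.0, 49.99 and 57.6 CPM in the control libraries and 68.0, 72.8 and 73.7 CPM under miR-27a, a rise of 0.42 ± 0.09 (adjusted p = 0.00492). Of 27 genes of the integrated stress response 1 rose (0 without control replicate 3, 2 without control replicate 1, 4 without miR-27a replicate 2, 2 with the replicate block) and 3 fell (1 without control replicate 1, 2 or 3 or miR-27a replicate 2 or 3), led by Cebpb at -0.89 ± 0.14, a stress-induced transcription factor. Of 21 tested interferon response genes (32 listed) 2 rose (0 without control replicate 3 or miR-27a replicate 3, 1 without control replicate 1, 4 without miR-27a replicate 2) and 2 fell (0 without control replicate 1 or miR-27a replicate 3, 1 without control replicate 2 or 3), none of which was called in each fit that left out 1 library. Of the named genes, the following lost their call without 1 library: Nqo1 (highest adjusted p = 0.126) and Me1 (highest adjusted p = 0.145) without control replicate 1, 2 or 3 or miR-27a replicate 3, and Gsta4 (highest adjusted p = 0.0685) without control replicate 1 or 2 or miR-27a replicate 3, and Insig1 (highest adjusted p = 0.0683) without control replicate 3.

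Growth factor receptor kinases, Wnt and Notch genes held calls in both directions, beside 13.1% called over all tested genes. Of 25 growth factor receptor kinases 2 rose (1 without control replicate 1 or 3 or miR-27a replicate 3, 4 without miR-27a replicate 2, 4 with the replicate block) and 3 fell (5 without miR-27a replicate 1). Erbb3, a neuregulin receptor, stood at 5.75, 6.49 and 4.72 CPM in the control libraries and 14.5, 11.3 and 12 CPM under miR-27a, a change of 1.04 ± 0.14 (adjusted p = 0.000192). Ephb1 at -0.58 ± 0.11, an ephrin receptor, fell with Met. Of 43 Wnt pathway genes (50 listed) 1 rose (2 without miR-27a replicate 1, 3 without miR-27a replicate 2, 2 with the replicate block), Wnt5a at 0.52 ± 0.10, a Wnt ligand, and 6 fell (2 without control replicate 1 or 3), among them Fzd5 at -0.55 ± 0.13, a Frizzled receptor, and Dkk3 at -0.52 ± 0.08, a secreted Dickkopf protein. Ctnnb1, beta-catenin, stood at 1303, 1282 and 1288 CPM in the control libraries and 1551, 1376 and 1455 CPM under miR-27a. Its log2 change came to 0.18 ± 0.09 (adjusted p = 0.214, but 0.038 without miR-27a replicate 2). Of 27 genes of the Notch pathway 2 rose (1 without control replicate 1, 2 or 3 or miR-27a replicate 3, 5 without miR-27a replicate 2), led by Dll3 at 0.46 ± 0.09, a Notch ligand family member, and 1 fell (2 without miR-27a replicate 1 or 2, 2 with the replicate block), the effector Hes5. Semaphorins, plexins and neuropilins, guidance ligands and their receptors, had 30 members, of which 8 fell and 3 rose (1 without control replicate 1 or 2 or miR-27a replicate 3), with a median of -0.14. Sema7a, with 2 8mers, stood at 30.6, 28.4 and 32.4 CPM in the control libraries and 16.4, 16.0 and 16.4 CPM under miR-27a, a change of -0.86 ± 0.10 (adjusted p = 4.5e-05). Sema5a at -0.60 ± 0.08 fell and Sema3a, a repellent of OPCs, rose by 0.98 ± 0.11 (adjusted p = 3.68e-05). The differences between fractions were -0.52 ± 0.08 and 0.64 ± 0.14 for these last 2 genes (adjusted p = 0.00417 and 0.0274), and that of Sema3a was lost without pulldown control replicate 3, whole-cell control replicates 1 or 3 or whole-cell miR-27a replicates 2 or 3 (highest adjusted p = 0.101). Among genes named here, calls were lost for Fzd5 (highest adjusted p = 0.0605) without control replicate 1 or miR-27a replicate 3.

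The lists of this paragraph stand beside 6.05% of all tested genes that rose and 7.06% that fell. Of 35 tested voltage-gated and leak channels 4 rose (7 with the replicate block) and 2 fell (4 without miR-27a replicate 2, 5 with the replicate block). Kcna5, a potassium channel of glia, stood at 2.1, 2.47 and 1.66 CPM in the control libraries and 5.19, 5.54 and 6.66 CPM under miR-27a. The difference of log2 levels was 1.15 ± 0.16 (adjusted p = 0.000244), and Cacna2d3 at -0.61 ± 0.10, a calcium channel subunit, and Kcnk2 at -0.78 ± 0.13, a leak potassium channel, both with an 8mer, fell. Of 27 tested glutamate and GABA receptor subunits 3 rose and 5 fell (2 without control replicate 1 or 3 or miR-27a replicate 3, 3 without control replicate 2), with Gria3 at 0.57 ± 0.10, an AMPA receptor subunit, Grik1 at 0.85 ± 0.17, a kainate receptor subunit, and Gabrb2 at 0.61 ± 0.13, a GABA receptor subunit, higher. Of 27 tested genes of the machinery that makes and uses microRNAs, such as Argonautes and their partners, 1 rose (0 without control replicate 3, 2 without control replicate 2 or miR-27a replicate 2, 3 without miR-27a replicate 1, 3 with the replicate block), Tnrc6b at 0.40 ± 0.09, an Argonaute-binding scaffold, and 0 fell (2 without miR-27a replicate 2, 1 with the replicate block). Of 80 ribosomal protein genes 0 rose (8 without miR-27a replicate 2, 2 with the replicate block) and 1 fell (0 without control replicate 1, 2 or 3 or miR-27a replicate 3, 2 without miR-27a replicate 1, 2 with the replicate block), with a median of 0.02. Of 79 respiratory chain genes 1 rose (0 without control replicate 1, 2 or 3 or miR-27a replicate 1 or 3, 12 without miR-27a replicate 2, 4 with the replicate block) and 2 fell (0 without control replicate 1 or 3 or miR-27a replicate 3, 1 without control replicate 2), with a median of -0.0041. Of 15 tubulins 1 rose (3 without miR-27a replicate 2, 2 with the replicate block) and 2 fell (1 without control replicate 1 or 2, 4 with the replicate block), with a median of -0.05. Among 23 long non-coding RNAs 3 rose (1 without control replicate 2 or 3 or miR-27a replicate 3, 5 without miR-27a replicate 1) and 1 fell (0 without control replicate 1 or 3 or miR-27a replicate 3, 7 without miR-27a replicate 2, 2 with the replicate block). Neat1, the scaffold of nuclear paraspeckles, stood at 34.0, 30.8 and 29.6 CPM in the control libraries and 56.9, 92.1 and 71.0 CPM under miR-27a, a change of 1.17 ± 0.13 (adjusted p = 3.78e-05), with no overlap. Of 20 small non-coding RNAs 0 rose and 4 fell (1 without control replicate 3 or miR-27a replicate 3, 2 without control replicate 1 or 2, 8 without miR-27a replicate 2), among them Snora23 at -0.59 ± 0.16, a small nucleolar RNA, and Rmrp at -0.45 ± 0.11, the RNA of RNase MRP. Of 17 genes of SUMO conjugation 1 rose (2 without miR-27a replicate 1, 2 with the replicate block) and 1 fell (0 without control replicate 1, 2 or 3 or miR-27a replicate 3, 3 without miR-27a replicate 2). The fall was Sumo3 at -0.31 ± 0.08, a SUMO protein, and the rise Sae1, a subunit of the activating enzyme, which stood at 62.3, 61.3 and 62.3 CPM in the control libraries and 144, 109 and 127 CPM under miR-27a. On the log2 scale this was 1.01 ± 0.10 (adjusted p = 9.04e-06). The mitochondrially encoded mRNAs were not analysed here. Leaving out 1 library ended the calls of Tnrc6b (highest adjusted p = 0.069) without control replicate 3, and Snora23 (highest adjusted p = 0.118) without control replicate 2 or 3 or miR-27a replicate 3, and Rmrp (highest adjusted p = 0.113) without control replicate 3 or miR-27a replicate 3, and Sumo3 (highest adjusted p = 0.0943) without control replicate 1, 2 or 3 or miR-27a replicate 3.

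Most of what changed in the pulldown changed in the same direction in whole-cell RNA. Of the 810 rises that could be tested there, 550 also rose (67.9% of them, and 31.9% of the 1726 whole-cell rises tested in both) and 6 fell. Of 949 falls 594 also fell (62.6% of them, and 37.4% of the 1589 whole-cell falls) and 12 rose, where 24.9% of all genes tested in whole-cell RNA were called. The difference of the 2 changes, tested as an interaction over all 12 libraries, was called for 149 of 13875 genes (1.07%), 47 higher and 102 lower in the pulldown (53 and 72 with median-of-ratios scaling). Among the changes of at least 2-fold it was called for 15 of 37 rises and 2 of 30 falls. The number of differences called was 43 when whole-cell miR-27a replicate 3 was left out, 53 or 54 for whole-cell control replicate 3 or 1, and 57 or 66 for whole-cell miR-27a replicate 1 or 2. For pulldown control replicate 3 or 1 it was 49 or 90, and for pulldown miR-27a replicate 1 or 2 it was 359 or 473.

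Of the 6 genes with the largest positive difference, Fam19a4, Atp10b, Kcna5 and Nt5e were not called in whole-cell RNA. Fam19a4 averaged 1.06 and 1.34 CPM in whole-cell RNA under the control and the miR-27a mimic, a log2 value of 0.18 ± 0.16 that did not pass the test, and its difference was 1.69 ± 0.20 (adjusted p = 0.000217). Atp10b, a lipid flippase, stood at 14.9, 16.5 and 16.4 CPM in the control libraries and 36.4, 34.5 and 32.7 CPM under miR-27a in the pulldown, a change of 1.07 ± 0.10 (adjusted p = 8.35e-06). In whole-cell RNA it stood at -0.13 ± 0.11, and the difference was 1.20 ± 0.14 (adjusted p = 0.000217). Capn6 changed by 0.44 ± 0.06 in whole-cell RNA, with a difference of 0.97 ± 0.10 (adjusted p = 0.000217). Kcna5 and Nt5e, the ecto-enzyme CD73, had differences of 1.21 ± 0.21 and 0.95 ± 0.16 (adjusted p = 0.0067 and 0.00552). Srp54b, a near copy of the signal recognition particle gene Srp54a, had the largest, 2.60 ± 0.49, and is uncertain because reads of such copies can be split by the counting. Its change was 1.19 ± 0.25 in the pulldown and -1.41 ± 0.26 in whole-cell RNA. Its control libraries were scattered, at 5.15, 2.51 and 8.03 CPM in the pulldown and 18.9, 6.09 and 11.1 CPM in whole-cell RNA. Of these 6 genes none holds an 8mer or a 7mer of miR-27a-3p in its longest 3′ UTR. The same holds for 8765 of the 12595 tested genes with a 3′ UTR. Of the opposite arm, miR-27a-5p, Kcna5 holds an 8mer and Capn6 a 7mer. On the lower side Scg2 changed by -0.83 ± 0.05 in whole-cell RNA, a difference of -0.85 ± 0.10 (adjusted p = 0.000217). Nkx6-2 fell in the pulldown, from 56.3 to 38.9 CPM, and rose by 0.43 ± 0.07 in whole-cell RNA, a difference of -0.96 ± 0.14 (adjusted p = 0.00249). Adc, antizyme inhibitor 2, stood at 39.8, 38.9 and 43.5 CPM in the control libraries and 22.9, 18 and 24.7 CPM under miR-27a in the pulldown, with a difference of -0.79 ± 0.15 (adjusted p = 0.013). Gng4, a G protein gamma subunit, Sema4a, a semaphorin, and the small nucleolar RNA Snora78 had differences of -0.85 ± 0.13, -0.80 ± 0.17 and -0.80 ± 0.17. In the pulldown they stood at -0.36 ± 0.11, -0.41 ± 0.13 and -0.62 ± 0.11, without a call for Sema4a (adjusted p = 0.0524). That pulldown call of Gng4 was lost without control replicate 1 or 2 or miR-27a replicate 3 (highest adjusted p = 0.187). In whole-cell RNA Gng4 and Sema4a rose, by 0.48 ± 0.06 and 0.40 ± 0.10, and Snora78 was not called. Among the genes named for their difference, the calls of Fam19a4, Atp10b, Capn6, Kcna5, Nt5e, Scg2, Nkx6-2 and Gng4 held without any 1 of the 12 libraries. Srp54b lost its call without whole-cell miR-27a replicate 3, and those of Adc, Sema4a and Snora78 without that library, whole-cell control replicate 1 or pulldown control replicate 3. Further libraries that ended a call were whole-cell control replicate 3 for Adc and Snora78, whole-cell control replicate 2 for Sema4a, whole-cell miR-27a replicates 1 and 2 for Sema4a and Snora78, and pulldown control replicate 1 and miR-27a replicate 3 for Snora78. Of the 857 tested 8mer genes, the difference of the 2 changes was called higher in the pulldown for 2 and lower for 5. Over all genes tested for that difference 1.07% were called. Among mitosis genes 4 of 37 were called higher, Top2a, Anln, Tpx2 and Ndc80, a kinetochore protein, with differences of 0.38 ± 0.09, 0.41 ± 0.09, 0.37 ± 0.09 and 0.51 ± 0.12. Each of these 4 lost its call without any 1 of the 6 whole-cell libraries, without pulldown control replicates 1 or 3 and without pulldown miR-27a replicate 3 (highest adjusted p = 0.158), Anln also without pulldown control replicate 2, and Ndc80 also with the replicate block (adjusted p = 0.0534). The difference of Ccnb1 was 0.01 ± 0.11 (adjusted p = 0.984).

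**Figure D4:**
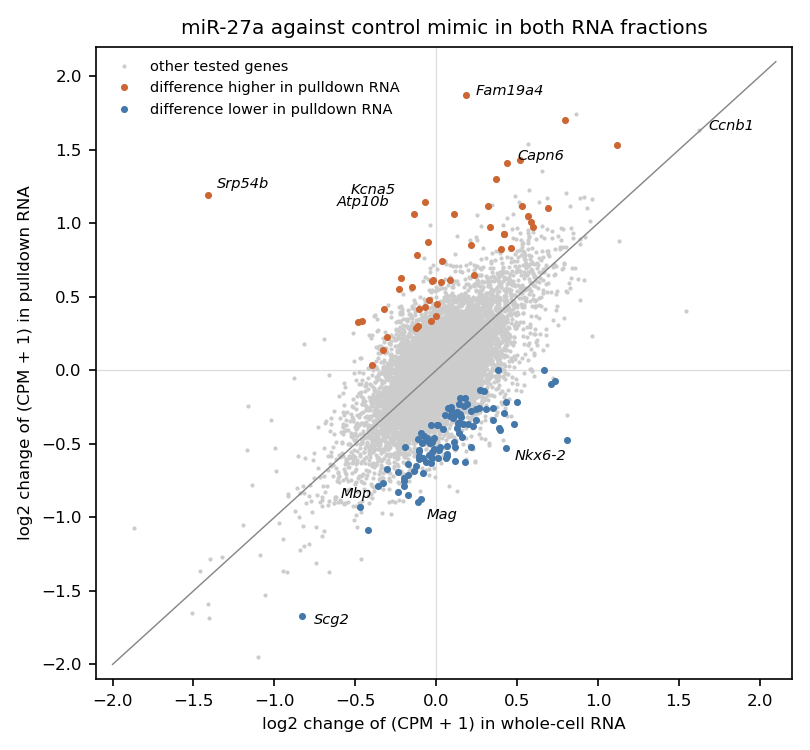
log2 change of CPM + 1 between miR-27a and control mimic in whole-cell RNA (horizontal axis) and in pulldown RNA (vertical axis), 1 point per gene tested in both, coloured where the difference between the 2 changes was called, with the line of equal change. Fam19a4, at 1.88 in pulldown and 0.18 in whole-cell RNA, lies far above the line, Scg2 and Mag lie below it, and Ccnb1 lies on it.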

How the data were processed

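RNA of 12 libraries was measured by sequencing, and the 6 pulldown libraries are compared. Per the labels and design text, the authors prepared TruSeq Stranded Total RNA libraries with Ribo-Zero Globin and paired ends, trimmed reads with skewer, aligned them with HISAT2 to GRCm38, counted with featureCounts and normalised with edgeR. The submitters' processing notes also name mm8, without its role. The authors deposited log2 CPM values per gene. Tool versions and the strand setting of the counting are not given in sources read here, so that reads of overlapping and antisense genes cannot be told apart.

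CPM were recovered from the log2 values by subtracting the level of genes without reads, which amounts to a prior of 0.194 to 0.335 reads by library. All values except the highest were checked and came out as whole reads within 0.01 reads. Differences were tested with limma 3.58.1 (R 4.3.3, empirical Bayes with a trend, two-sided) on log2(CPM + 1), for genes that reached 1 CPM in 3 or more libraries of the fit. The difference between pulldown and whole-cell RNA was an interaction term over 12 libraries. That fit used 1 estimate of the spread of a gene for whole-cell and pulldown libraries together. For genes that spread more in the pulldown, the error of a difference can therefore be too small. For Pdgfra it was 0.076, where the errors of the change were 0.086 in the pulldown and 0.031 in whole-cell RNA. Scripts were tested on simulated data. Tables and figures used Python 3.11.15, pandas 2.3.3, numpy 2.4.6, scipy 1.17.1 and matplotlib 3.10.9. Loci and 3′ UTRs come from GENCODE M21 (GRCm38), and miRNA sequences from RefSeq.

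The members and the 39 gene lists were chosen with earlier results of these data known, so their counts are not independent support. Named by rule were the 12 largest called rises and falls with at least 5 CPM in 1 group, no overlap and no provisional symbol, up to 6 members of a list by smallest p, the 6 largest differences of each sign, and marker genes. Further genes were named after their values were seen (Aurka, Cdc20, Cdc25b, Cdk4, Dnmt1, F2r, Fabp7, Foxm1, Gpr17, Hapln4, Me1, Ndc80, Nek6, Npy, Pam, Plk2, Sox9, Tgfbr1, Thbs2, Tpx2, Vcl and 0610007P14Rik). The main fits did not pair libraries. Only in the replicate block were replicate numbers of the titles taken to pair libraries, since deviations of same-numbered control and miR-27a libraries from their group means correlated over genes at 0.14, 0.29 and 0.11. This pairing was thus inferred from the same data. Alternatives were the replicate block, other pseudocounts, filters and scalings, limma voom on recovered reads, all libraries in the fit and leaving out each library. A few items are not reported here.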

Additional observations from a re-analysis of the deposited data

Results flagged for a closer look

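Some genes named above changed differently in pulldown and whole-cell RNA under the same comparison of mimics, by limma's interaction test with Benjamini-Hochberg adjustment. Values in parentheses are the log2 change in pulldown RNA minus that in whole-cell RNA. Higher in the pulldown, and called without any 1 of the 12 libraries, were Fam19a4 (1.69), Kcna5 (1.21), Atp10b (1.20), Capn6 (0.97), Nt5e (0.95), Kcna1 (0.93), Ptgds (0.90) and Pcdh15 (0.72). Lower and called in each of these fits were Nkx6-2 (-0.96), Gng4 (-0.85), Scg2 (-0.85), Mag (-0.78), Mbp (-0.68), Gal3st1 (-0.64), Trf (-0.59) and Sema5a (-0.52). Higher, with a call that ended without at least 1 library, were Srp54b (2.60), Pamr1 (0.91), Gjc3 (0.80), Sema3a (0.64), Grb10 (0.59), Btg2 (0.53), Ndc80 (0.51), Plk2 (0.43), Phtf2 (0.42), Anln (0.41), Tnc (0.41), Top2a (0.38) and Tpx2 (0.37). Lower, with such a call, were Sema4a (-0.80), Snora78 (-0.80), Adc (-0.79), Lpar1 (-0.66), Rmrp (-0.61), Cnksr3 (-0.56), Gfap (-0.53) and Sirt2 (-0.41). The part of the sex-linked RNA that differs between the fractions was not tested. No group has enough libraries to look for single outlying ones by the gap to the others.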

How the results depend on the processing

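With the replicate block the count of called genes in the pulldown was 2743, against 1781 without it, and with all 12 libraries in the fit it was 3051. Without 1 library it ranged from 969 to 2691. A pseudocount of 0.25 CPM, the deposited log2 values, no filter, a filter of 5 CPM, library totals, median-of-ratios scaling and limma voom on recovered reads gave 1246 to 1781 genes. The median change of 8mer genes, -0.109 on the log2 scale, was -0.069 with no filter, which adds genes with few reads, and -0.128 to -0.093 without 1 library. The count of differences between fractions, 149, was 73 with no filter, 170 with the replicate block and 43 to 473 without 1 library. No called change of a named gene reversed its direction under the alternatives run, 15 of them for the pulldown comparison. Among named genes the replicate block also changed the calls of Sema4a in the pulldown (adjusted p = 0.0182, 0.0524 without it) and of the differences of Adamts4 and Hmmr (adjusted p = 0.033 and 0.0222, 0.0573 and 0.052 without it), and it changed no other call of a named gene than those given beside the result. With no filter the calls of Cdc25b, Foxm1, Gng4, Gsta4, Me1, Npy, Nqo1, Pdgfrb, Rmrp, Snora23 and Srp54b in the pulldown were lost, and library totals ended those of Gng4, Pdgfrb and Vcl. The calls of a difference between fractions lost with no filter were those of Adc, Cnksr3, Gfap, Gjc3, Ndc80, Pamr1, Phtf2, Rmrp, Sema3a, Sema4a, Sirt2, Snora78, Srp54b, Tnc, Top2a and Tpx2. The cause of these changes was not tested. Genes below 1 CPM rest on few reads, and 3 libraries a group limit the precision.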

Other observations

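Further genes that changed at least 2-fold, on no list described above and chosen after their values were seen, were the following. Nucks1, a nuclear substrate of kinases, stood at 214, 230.1 and 221 CPM in the control libraries and 482, 514 and 453 CPM under miR-27a, a change of 1.12 ± 0.08 (adjusted p = 7.11e-07). Grb10, an adaptor that dampens insulin signalling, stood at 29.1, 30.8 and 29.1 CPM in the control libraries and 68.1, 67.4 and 61.5 CPM under miR-27a, a change of 1.12 ± 0.09 (adjusted p = 1.89e-06), and its difference from whole-cell RNA was 0.59 ± 0.11 (adjusted p = 0.0142). Cadps2, a priming factor of dense-core vesicles, stood at 8.45, 10.4 and 9.31 CPM in the control libraries and 19.3, 26.0 and 22.8 CPM under miR-27a, a change of 1.19 ± 0.13 (adjusted p = 2.4e-05). All 3 genes were higher in each miR-27a library than in any control library, and Cadps2 rose where the vesicle proteins Scg2, Vgf and Chgb fell. Iqgap3 at 1.17 ± 0.13, a scaffold of the cytoskeleton, Adra2c at 1.14 ± 0.15, an adrenergic receptor, and Phtf2 at 1.01 ± 0.09 also rose. Among the falls, Aspg, an asparaginase, stood at 29.97, 28.1 and 31.6 CPM in the control libraries and 11.5, 12.2 and 14.2 CPM under miR-27a, a change of -1.18 ± 0.11 (adjusted p = 7.92e-06), and Pex5l at -1.15 ± 0.14, a regulator of pacemaker channels, fell with it. Genes at low CPM were Kcnk3, a leak potassium channel, at 2.65 to 0.399 CPM on average, Slc18a3, the vesicular acetylcholine transporter, at 2.17 to 0.231 CPM, C1s, a complement protease, at 3.08 to 0.687 CPM, and the chemokine Cxcl5 at 3.6 to 1.24 CPM, all of which fell. None of these 12 genes holds an 8mer of miR-27a-3p, which 857 of the 12595 tested genes with a 3′ UTR hold. Nucks1, Cadps2 and Adra2c hold a 7mer of it. The calls of all 12 held without any 1 pulldown library.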
